A study of Mus musculus with 11 samples.

Results

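The 46 genes described here encode the acid hydrolases of the lysosome, the cofactors they need, the main proteins of the lysosomal membrane and progranulin. They were chosen by name, and all 46 were among the 14602 genes of the deposited count table. The libraries were made from RPE/choroid of C57BL/6J mice from which the neural retina had been removed. A naïve control group (6 libraries) was compared with a laser treated group (5 libraries), in which mice received the 2RT nanosecond laser to one eye at 9 months of age. Both groups were collected at 12 months, which was 3 months after the laser for the treated mice, and neither carried a mutation or transgene. The labels do not say whether a library is 1 eye, 1 mouse or a pool, so p-values measure only the spread between these libraries. The question of the comparison was whether laser treatment leaves a lasting change in the RPE.

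The lysosome is the acidic compartment in which cells break down material taken up from outside and worn out parts of their own. Its enzymes are sorted there by mannose 6-phosphate tags, a proton pump keeps its interior acid, and many of its genes are switched on together by the transcription factor TFEB and its relatives. The RPE depends on it heavily, because it takes up shed photoreceptor outer segments every day, and incompletely digested residue accumulates with age as lipofuscin. Inherited loss of single enzymes of the list causes lysosomal storage diseases.

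Most of these genes had more counts in the laser treated libraries, but no single gene passed the adjusted threshold. The log2 fold change was above 0 for 35 of the 46 genes, against 48.5% of all genes tested, and its median was 0.29, against -0.019 over all genes. At an unadjusted p under 0.05, 17 of the 46 were higher and 1 was lower, beside 8.24% of all genes higher and 7.68% lower (15.9% in either direction). No gene of the 14602 reached an adjusted p under 0.05 in edgeR's quasi-likelihood test, and limma voom also called 0 of the 46. DESeq2 called 8 of the 46 (Arsa, Neu1, Grn, Gaa, Ctsf, Ctsd and Naglu higher, Ids lower) beside 3.44% of all genes. "Higher" and "lower" below give the direction of a difference whose adjusted p is above 0.05, the smallest in the list being 0.172.

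The summed level of the list was also higher on average, and much of that came from Ctsd. The 46 genes held 1.79% ± 0.233 (SD, n = 6) of all counts in the naïve control libraries and 2.22% ± 0.158 (SD, n = 5) in the laser treated libraries. The ranges were 1.43% to 2.12% and 2.07% to 2.47%, so the groups overlapped: naïve control library 6 lay above laser treated libraries 3 and 5. Ctsd alone held 0.667% ± 0.111 and 0.933% ± 0.0921 of the counts. The other 45 genes held 1.12% ± 0.127 in controls and 1.29% ± 0.0726 after laser. For these 45, naïve control library 6, at 1.29%, lay above every laser treated library except library 2, at 1.40%. In bulk tissue, more cells of a type and more RNA per cell cannot be told apart.

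**Figure D1:**
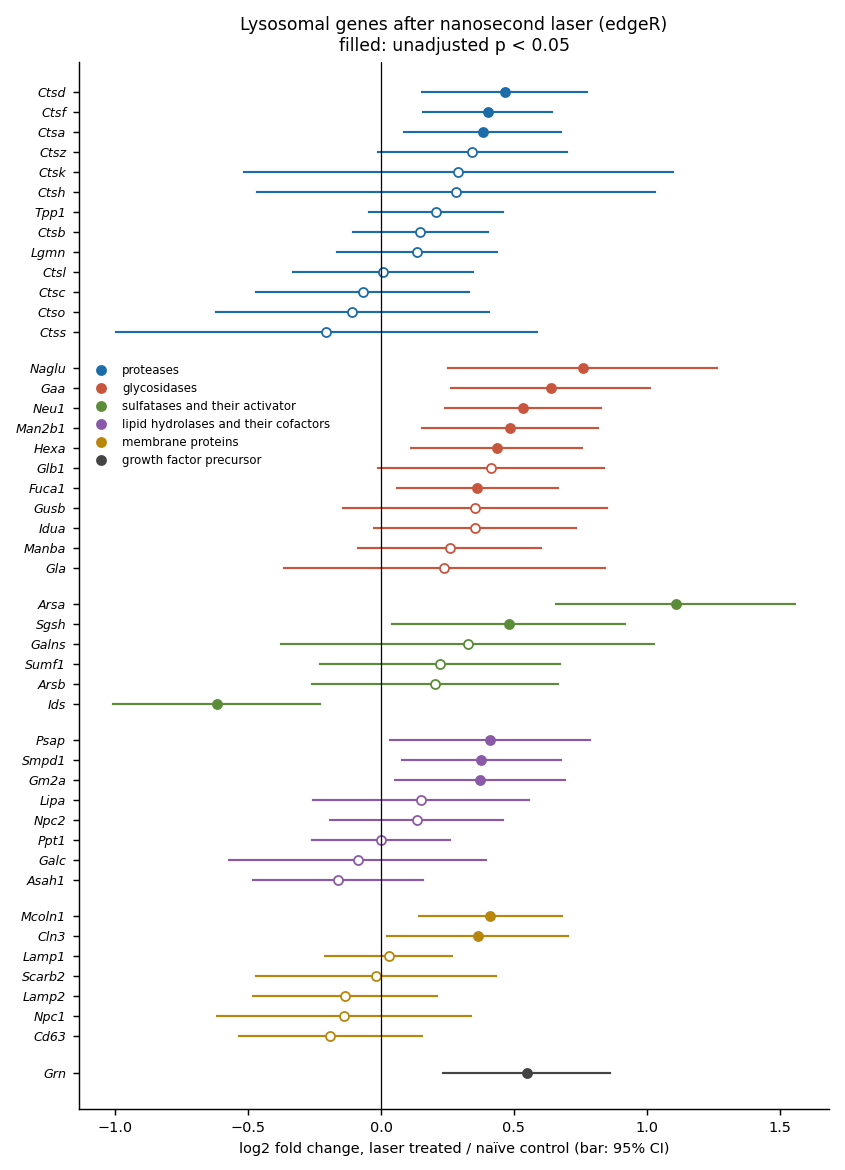
The log2 fold change (laser treated over naïve control, edgeR) of each of the 46 lysosomal genes, grouped by role, with its 95% confidence interval as a bar. Filled points have an unadjusted p under 0.05; all 11 glycosidases lie right of 0, and Ids is the filled point on the left.

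TFEB and its relatives bind an E-box, CACGTG, at the start sites of lysosomal genes. The windows of promoter below are shown because they hold that motif (every copy in capitals) in the genes that were higher after laser, and in Lamp1, whose log2 fold change was near 0. They are from RefSeq, build GRCm38.p6, written 5′ to 3′ on the strand of the gene and ending no later than its start site.
Arsa (chr15:89477425-89477470, minus strand): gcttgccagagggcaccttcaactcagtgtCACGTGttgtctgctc
Gaa (chr11:119267793-119267858, plus strand): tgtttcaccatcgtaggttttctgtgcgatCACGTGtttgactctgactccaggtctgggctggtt
Naglu (chr11:101069991-101070056, plus strand): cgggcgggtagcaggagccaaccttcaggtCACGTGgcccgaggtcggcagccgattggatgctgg
Sgsh (chr11:119355511-119355569, minus strand): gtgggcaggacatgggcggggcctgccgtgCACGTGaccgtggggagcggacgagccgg
Ctsd (chr7:142387890-142387955, minus strand): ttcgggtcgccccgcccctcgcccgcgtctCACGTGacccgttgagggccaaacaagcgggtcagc
Ctsf (chr19:4855056-4855121, plus strand): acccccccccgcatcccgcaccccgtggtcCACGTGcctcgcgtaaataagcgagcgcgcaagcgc
Ctsa (chr2:164833731-164833772, plus strand): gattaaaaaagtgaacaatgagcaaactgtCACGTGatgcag
Cln3 (chr7:126583322-126583387, minus strand): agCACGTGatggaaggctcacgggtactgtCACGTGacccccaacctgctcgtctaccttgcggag
Mcoln1 (chr8:3500444-3500509, plus strand): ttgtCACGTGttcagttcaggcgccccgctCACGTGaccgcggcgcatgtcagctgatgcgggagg
Lamp1 (chr8:13159086-13159151, plus strand): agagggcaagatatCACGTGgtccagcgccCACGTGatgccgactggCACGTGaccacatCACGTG

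The motif reads the same on both strands, so 1 search covers both. It was found in 15 of the 41 members with a promoter entry (36.6%), in 11.7% of the 10162 table genes with one and in 7.15% of all 32851 promoters of the same length. Promoters were not listed for Ctsb, Ctsh, Galns, Asah1 and Npc1. The longer form TCACGTGA, which contains the motif, was found in 6 members (14.6%: Ctsa, Ctsd, Gla, Sumf1, Cln3 and Mcoln1) and in 2.12% of the table genes. Of the 15 members with the motif, 9 were higher after laser, and of the 26 without it, 8 were. Over all table genes with a promoter entry, the median log2 fold change was 0.00064 with the motif and -0.0092 without it. Lamp1 holds 4 copies and had a log2 fold change of 0.029.

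Per kilobase of annotated exon, levels spanned a wide range. The aspartic protease cathepsin D (Ctsd), a main enzyme of outer segment protein digestion in the RPE, had 3358 CPM (counts per 1000000, after scaling of the libraries) per kilobase as the mean of all 11 libraries. Prosaposin (Psap), the precursor of the saposins that present glycolipids to their hydrolases, followed with 832 CPM per kilobase. The tetraspanin Cd63 had 384, cathepsin B (Ctsb) 270 and cathepsin Z (Ctsz) 182 CPM per kilobase. At the other end were the galactocerebrosidase Galc (1.01) and the cholesterol transporter Npc1 (1.54 CPM per kilobase).

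**Figure D2:**
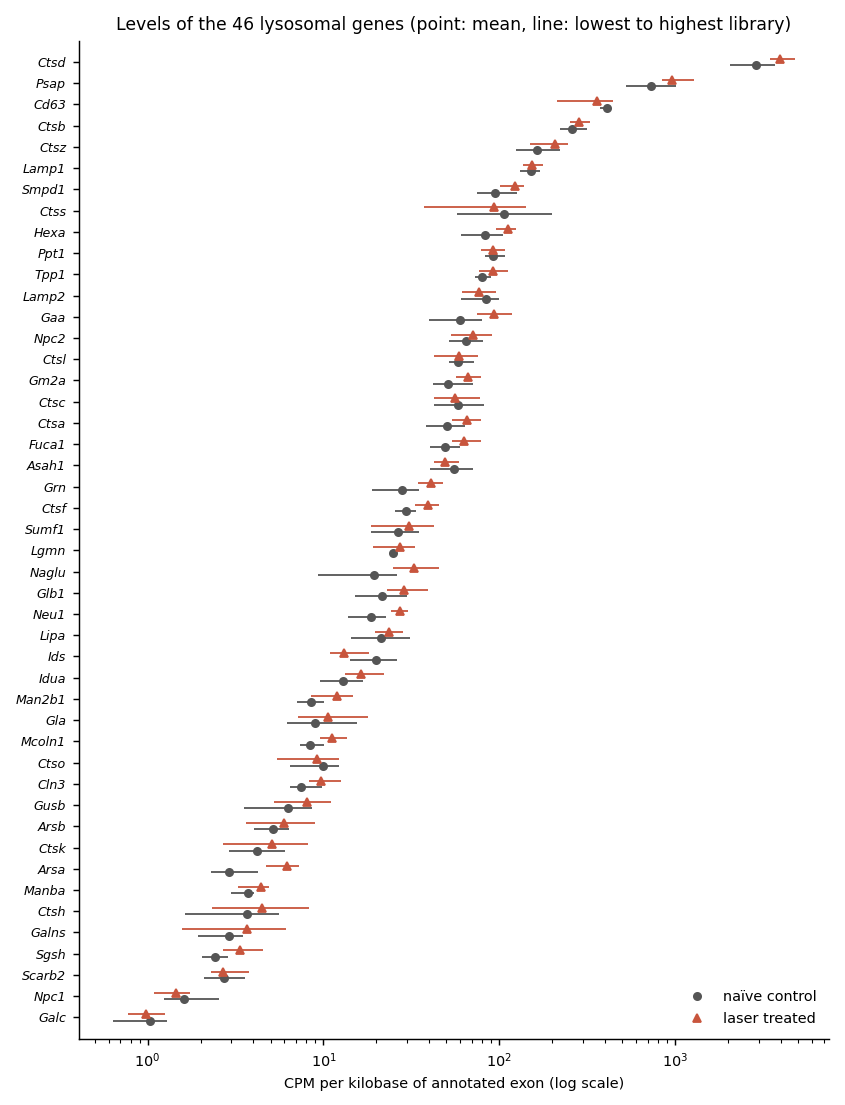
Levels of the 46 genes in CPM per kilobase of annotated exon on a log axis, ordered by the mean over all libraries; points are group means and lines run from the lowest to the highest library. Ctsd stands alone at the top with 3358 CPM per kilobase, and the lines of the groups overlap for every gene except Arsa and Neu1.

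Among the 13 proteases, 3 were higher at an unadjusted p under 0.05 in edgeR, beside 8.24% of all genes. A positive log2 fold change was found for 10, against 48.5% of all genes, and the median was 0.21. Ctsd had 4806 to 8674 CPM in the naïve control libraries, with a median of 6841. Its laser treated libraries had 9595, 11298, 8494, 8921 and 8148 CPM, so 3 of 5 lay above every control, and naïve control library 6 was the only control in their range. This was a log2 fold change of 0.46 (SE 0.14, adjusted p = 0.181). Exons of Gm49369, a gene outside the table, overlap 34.4% of its exon length.

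The cysteine protease cathepsin F (Ctsf) had 129.1 to 168.3 CPM in controls (median 150.0). In the laser treated libraries it had 173.4, 209.6, 206.6, 227.7 and 166.9 CPM, and the groups overlapped by laser treated library 5 alone. For Ctsf the log2 fold change was 0.40 (SE 0.11, adjusted p = 0.174). Protective protein/cathepsin A (Ctsa), a carboxypeptidase that also holds neuraminidase and beta-galactosidase in a stable complex, had a control range of 181.2 to 298.8 CPM (median 230.3). Its laser treated values were 296.8, 369.9, 309.7, 308.0 and 253.6 CPM, and the log2 fold change was 0.38 (SE 0.14, adjusted p = 0.218). Exons of Ctsa overlap those of Pltp and Neurl2 over 17.4% of their length.

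The cathepsins best known from immune cells and bone had differences within their spread. Cathepsin S (Ctss), which is abundant in macrophages and microglia, had a mean of 145.1 ± 77.1 CPM in controls and 125.7 ± 52.4 CPM after laser. Cathepsin K (Ctsk), the collagenase of osteoclasts, had 4.38 to 9.16 CPM in controls and 4.05 to 12.3 CPM after laser, and a log2 fold change of 0.29 (95% interval -0.52 to 1.10). Cathepsins L (Ctsl), C (Ctsc) and O (Ctso) had log2 fold changes of 0.0079, -0.069 and -0.11, and cathepsin H (Ctsh) had 0.28 (95% interval -0.47 to 1.03).

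Ctsb, the second cathepsin by level, had 1340 to 1899 CPM in controls (median 1554) and 1846, 1979, 1515, 1700 and 1583 CPM after laser. The groups overlapped over most of their range, with a log2 fold change of 0.15 (SE 0.12, adjusted p = 0.604). The exopeptidase Ctsz had 178.3 to 318.9 CPM in controls (median 216.0) and 292.2, 354.0, 331.3, 214.0 and 295.3 CPM after laser. Its log2 fold change of 0.34 (SE 0.17) had an unadjusted p of 0.0571 from edgeR. Legumain (Lgmn), which activates cathepsins by cleaving after asparagine, had nearly equal controls, from 55.5 to 59.5 CPM, and widely spread laser treated libraries, from 44.5 to 77.4 CPM. The tripeptidyl peptidase Tpp1 had a log2 fold change of 0.21 (95% interval -0.043 to 0.46).

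The glycosidases, which trim sugars from glycoproteins, glycolipids and glycosaminoglycans, all pointed the same way in the fit of all libraries. All 11 had a positive log2 fold change, against 48.5% of all genes, and the median was 0.41. At an unadjusted p under 0.05 in edgeR 6 were higher, beside 8.24% of all genes. Within the R2 libraries, described further on, Gla had -0.28 and Gusb -0.013, and the others stayed above 0. The sialidase Neu1, which removes terminal sialic acid, had 51.7 to 84.3 CPM in controls. Its laser treated libraries had 107.8, 113.4, 103.5, 90.1 and 90.5 CPM, all above every control, and the log2 fold change was 0.53 (SE 0.14, adjusted p = 0.172). Only Neu1 and Arsa among the 46 had groups that did not overlap; 1.40% of all genes did so in this direction.

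Acid alpha-glucosidase (Gaa), the enzyme of lysosomal glycogen breakdown, had 189.4 to 380.5 CPM in controls (median 282.0). After laser it had 356.9, 565.3, 403.0, 516.5 and 383.0 CPM, and naïve control library 6 was the only control within that range. This gave a log2 fold change of 0.64 (SE 0.17, adjusted p = 0.174). Naglu, which removes N-acetylglucosamine from heparan sulfate, had 24.6 to 69.4 CPM in controls (median 51.3) and 88.5, 120.6, 66.2, 86.9 and 72.3 CPM after laser. Its log2 fold change of 0.76 (SE 0.24, adjusted p = 0.181) was the second of the list by size among those above 0, and laser treated library 3 lay below the highest control.

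The remaining 3 of the 6 act on glycoproteins and gangliosides. The alpha-mannosidase Man2b1 had 56.9 to 80.4 CPM in controls (median 69.1) and 102.0, 101.8, 68.2, 118.8 and 86.3 CPM after laser, with a log2 fold change of 0.48 (SE 0.15, adjusted p = 0.185). Hexa, the alpha subunit of the beta-hexosaminidase that degrades GM2 ganglioside, had 120.4 to 208.3 CPM in controls (median 162.4) and 229.0, 249.1, 240.8, 208.0 and 190.0 CPM after laser. For Hexa the log2 fold change was 0.43 (SE 0.15, adjusted p = 0.208), and 12.8% of its exon length overlaps Tmem202. The fucosidase Fuca1 had 131.8 to 194.7 CPM in controls (median 157.6) and 179.6, 257.7, 211.5, 176.0 and 211.3 CPM after laser, with a log2 fold change of 0.36 (SE 0.14, adjusted p = 0.242).

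The other 5 glycosidases had overlapping groups. Beta-galactosidase (Glb1) lay just outside the threshold with a log2 fold change of 0.41 (95% interval -0.010 to 0.84). Iduronidase (Idua) and beta-glucuronidase (Gusb), which act on glycosaminoglycans, both had 0.35. Beta-mannosidase (Manba) had 0.26 and alpha-galactosidase A (Gla) 0.24, the latter with an interval from -0.37 to 0.84.

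The sulfatases held both ends of the list. Of the 6 genes, 2 were higher and 1 lower at an unadjusted p under 0.05 in edgeR, beside 8.24% and 7.68% of all genes. Their median log2 fold change was 0.27. Arylsulfatase A (Arsa), which removes sulfate from the myelin lipid sulfatide, had 8.43 to 15.7 CPM in controls (median 9.69). After laser it had 17.4, 23.0, 26.7, 22.2 and 25.3 CPM, all above every control. Its log2 fold change was 1.11 (SE 0.21, 95% interval 0.66 to 1.56, adjusted p = 0.172), and it ranked 7 of 14602 genes by p. Exons of C230037L18Rik, a gene outside the table, overlap 18.8% of its exon length, and the library kit does not record strand.

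Iduronate 2-sulfatase (Ids), an X-linked enzyme of dermatan and heparan sulfate breakdown, was the gene that was lower. It had 71.8 to 133.5 CPM in controls (median 101.7) and 92.1, 57.7, 55.2, 57.1 and 69.7 CPM after laser, so laser treated library 1 alone lay within the control range. The log2 fold change was -0.62 (SE 0.18, adjusted p = 0.177). The sulfamidase Sgsh, which acts on the same heparan sulfate chain, had 9.01 to 12.7 CPM in controls (median 10.7) and 15.2, 20.0, 11.8, 12.8 and 14.7 CPM after laser, a log2 fold change of 0.48 (SE 0.20, adjusted p = 0.271), and 21.6% of its exon length overlaps Card14, which is outside the table. The arylsulfatase Arsb and the galactosamine sulfatase Galns had log2 fold changes of 0.20 and 0.33. Sumf1, an enzyme of the endoplasmic reticulum that activates every sulfatase by modifying its active site, had 0.22 (95% interval -0.23 to 0.67).

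**Figure D3:**
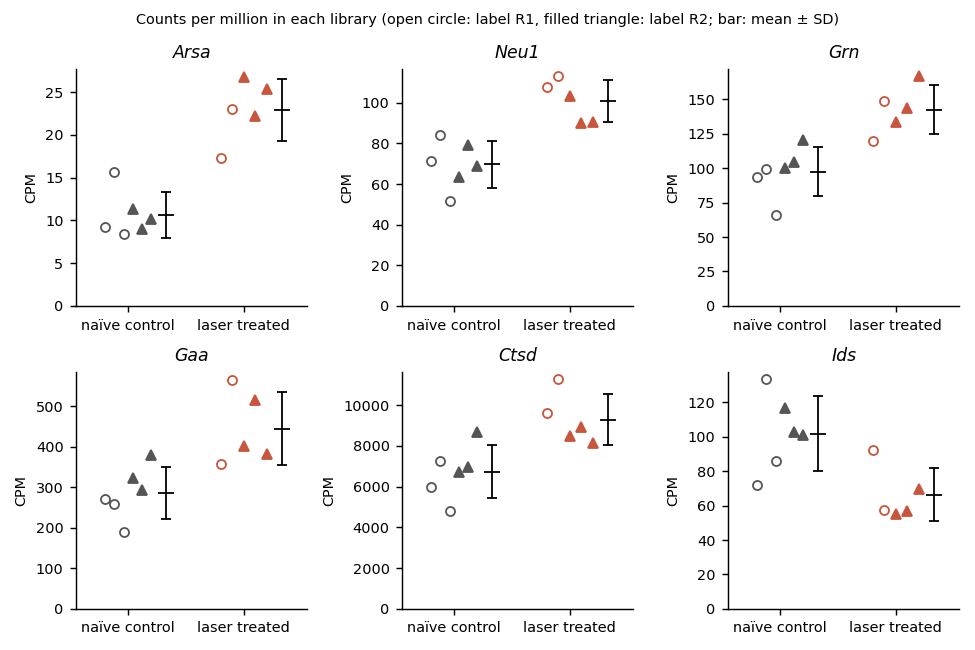
CPM in each library for 6 genes, with open circles for libraries labelled R1 in the transcript files, filled triangles for R2, and the mean ± SD beside each group. Arsa and Neu1 have no overlap between groups, Ctsd and Gaa overlap through naïve control library 6, and Ids lies below every control in all laser treated libraries but library 1.

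Of the 8 lipid hydrolases and cofactors, 3 were higher at an unadjusted p under 0.05 in edgeR, beside 8.24% of all genes. A positive log2 fold change was found for 5, against 48.5% of all genes, and the median was 0.14. Psap had 1436 to 2766 CPM in controls (median 2038) and 2457, 3512, 2402, 2515 and 2317 CPM after laser. Naïve control library 6 exceeded 4 of the 5 laser treated libraries, and the log2 fold change was 0.41 (SE 0.17, adjusted p = 0.274). The GM2 activator (Gm2a), which lifts GM2 ganglioside to hexosaminidase, had 172.0 to 293.1 CPM in controls (median 198.8) and 288.5, 326.2, 234.7, 274.3 and 235.2 CPM after laser, a log2 fold change of 0.37 (SE 0.15, adjusted p = 0.250).

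Acid sphingomyelinase (Smpd1), which releases ceramide from sphingomyelin, had 249.9 to 418.4 CPM in controls (median 308.0). After laser it had 445.6, 458.2, 360.2, 453.2 and 334.4 CPM, with a log2 fold change of 0.38 (SE 0.14, adjusted p = 0.222). Acid ceramidase (Asah1), the next enzyme along that route, had a log2 fold change of -0.16 (95% interval -0.48 to 0.16). The palmitoyl-protein thioesterase Ppt1 had equal means, 337.3 ± 34.1 CPM in controls and 337.1 ± 52.1 CPM after laser. Acid lipase (Lipa), the cholesterol carrier Npc2 and Galc had log2 fold changes of 0.15, 0.13 and -0.088.

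The 7 membrane proteins had a median log2 fold change of -0.019, and 3 of them were above 0, against 48.5% of all genes. The calcium channel mucolipin 1 (Mcoln1) had 55.7 to 75.7 CPM in controls (median 62.0) and 71.7, 102.6, 83.8, 81.5 and 83.8 CPM after laser, so 4 of 5 lay above every control. For Mcoln1 the log2 fold change was 0.41 (SE 0.12, adjusted p = 0.179). Cln3, the membrane protein lost in juvenile Batten disease, had 37.1 to 56.4 CPM in controls (median 39.7) and 53.8, 72.3, 51.6, 47.9 and 52.5 CPM after laser, a log2 fold change of 0.36 (SE 0.16, adjusted p = 0.282).

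The structural glycoproteins of the membrane had differences within their spread. Lamp1, the main coat protein of the lysosomal membrane, had 403.2 ± 43.6 CPM in controls and 411.2 ± 43.8 CPM after laser, with a 95% interval of the log2 fold change from -0.21 to 0.27. Lamp2, which is also the receptor of chaperone-mediated autophagy, had -0.13, and the sorting receptor Scarb2 had -0.019. The cholesterol transporter Npc1 had -0.14. Cd63 had 1377 to 1584 CPM in controls (median 1523) and 1606, 1363, 1184, 786.7 and 1621 CPM after laser. Its controls were tight and its laser treated libraries spread to both sides of them, and the log2 fold change was -0.19 (SE 0.16, adjusted p = 0.621).

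Progranulin (Grn), a secreted growth factor precursor that is cut into granulins inside the lysosome and is needed for its acid hydrolases to work well, had 66.0 to 120.8 CPM in controls (median 99.9). After laser it had 119.6, 149.1, 133.6, 143.7 and 166.8 CPM, and the groups overlapped only through naïve control library 6 and laser treated library 1. Grn thus had a log2 fold change of 0.55 (SE 0.15, adjusted p = 0.174).

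Of 78 further lysosomal genes in the table (83 were listed), 14 were higher and 4 lower at an unadjusted p under 0.05, beside 8.24% and 7.68% of all genes, and the median log2 fold change was 0.13. The 14 had a GC content of 47.0% to 63.2% and the 4 lower ones (Mitf, Atp6v1d, Atp6ap2 and Aga) of 40.5% to 44.8%. With the GC trend described further on removed, 7 of the 78 were higher and 0 lower by unadjusted p in edgeR, beside 3.88% and 3.08% of all genes. Among 25 other hydrolases, 7 were higher, among them Hyal1, Acp2, Dnase2a, Man2b2 and Plbd2, and Aga was lower. The acid phosphatase Acp2 had 72.5 to 83.5 CPM in controls and 86.9 to 114.4 CPM after laser, with no overlap, as in 1.40% of all genes. Its log2 fold change was 0.29 (SE 0.11, adjusted p = 0.222). Among 23 other membrane proteins, the chloride exchanger Clcn7 and the proton channel Tmem175 were higher, with log2 fold changes of 0.52 and 0.38, a share near the 8.24% of all genes.

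The transcription factors differed in direction. Tfeb had 10.7 to 19.1 CPM in controls (median 12.6) and 19.3, 30.3, 25.9, 26.5 and 24.1 CPM after laser. Every laser treated library thus lay above every control, as in 1.40% of all genes. The log2 fold change of Tfeb was 0.85 (SE 0.20, adjusted p = 0.172). Its GC content, 63.2%, was the highest of the 14 further lysosomal genes that were higher. Mitf, the relative of Tfeb that directs pigment cell identity, had a median of 78.8 CPM in controls and 48.7 CPM after laser, a log2 fold change of -0.49 (SE 0.18, adjusted p = 0.220). Tfe3 had 0.41 (SE 0.25). With the GC trend removed, Tfeb had 0.63 (unadjusted p = 0.00616 from edgeR) and Mitf -0.22 (unadjusted p = 0.320 from edgeR).

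The proton pump genes had differences in both directions. Of 17 subunits and accessory proteins, Atp6v0a1, Atp6v0a2 and Atp6v0d1 of the membrane sector were higher, Atp6v1d of the catalytic sector and the accessory protein Atp6ap2 were lower, and the median log2 fold change was 0.0074. These counts stand beside 8.24% of all genes higher and 7.68% lower. Atp6v1d had the smallest p of the 17, with 220.2 to 255.1 CPM in controls, 172.0 to 225.5 CPM after laser and a log2 fold change of -0.32. With the GC trend removed, Atp6v1d had -0.0093 and Atp6ap2 0.026 (unadjusted p = 0.951 and 0.885 from edgeR). In that fit Atp6v0a1 had 0.58, Atp6v0a2 0.53 and Atp6v0d1 0.22 (unadjusted p = 0.00583, 0.0415 and 0.131 from edgeR). Of 6 genes of mannose 6-phosphate tagging and sorting, the sorting receptor Sort1 was higher (log2 fold change 0.33, SE 0.12). None of 4 cystatins, the inhibitors of cysteine cathepsins, had an unadjusted p under 0.05 by edgeR, and none had an adjusted p under 0.05; the smallest p was that of Cstb (log2 fold change -0.44, SE 0.21). Cst3, by far the most abundant of them, had a log2 fold change of -0.010.

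The GC content of the transcripts moved with the result. Across genes, the log2 fold change rose with GC content, with r = 0.736 over the 46 members and r = 0.370 over the 14252 genes with a known GC content, as a description of genes that share the same libraries. The slope of level on GC content was -0.353 to -0.00672 log2 units per 10 percentage points in the control libraries and 0.0127 to 0.269 in the laser treated libraries, without overlap. The 17 higher members had a median GC content of 55.1%, the other 29 had 48.7%, and Ids had 41.4%. In genes over 55% GC, 21.2% of all genes and 9 of 12 members were higher, and in genes between 50% and 55% these were 10.7% and 7 of 15. Within every GC class the median of the members lay above that of all genes, at 0.45 against 0.28 over 55%, 0.36 against 0.13 from 50% to 55%, 0.21 against -0.095 from 45% to 50% and -0.098 against -0.30 below 45%.

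With the GC trend of each library removed, 7 members were higher (Arsa, Neu1, Grn, Gaa, Naglu, Mcoln1 and Gm2a) and 0 lower by unadjusted p in edgeR, beside 3.88% and 3.08% of all genes, and none passed the adjusted threshold. Over both directions the background was 6.96%. In that fit 42 of the 46 log2 fold changes were above 0 and their median was 0.26, against 54.4% above 0 over all genes. Arsa had 0.88 (SE 0.22), Neu1 0.42 and Grn 0.36, whereas Ctsd had 0.30 (unadjusted p = 0.119 from edgeR) and Ids -0.31 (unadjusted p = 0.186 from edgeR).

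**Figure D4:**
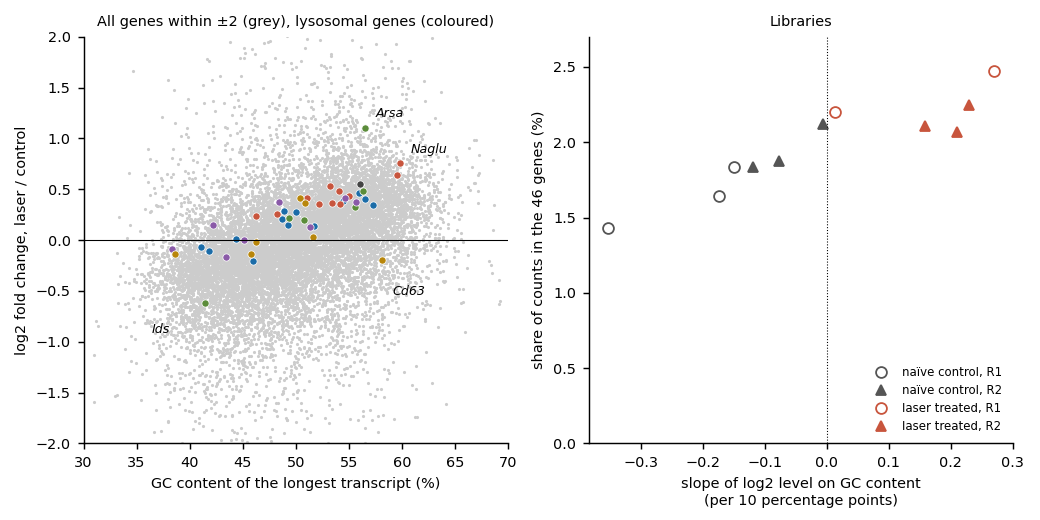
Left, log2 fold change against the GC content of the longest transcript for all genes (grey, 138 of 14252 lie beyond the axes) and the 46 members (coloured by role as in the plot of fold changes). Right, the share of counts in the 46 genes against the GC slope of each library: every laser treated library lies to the right of every control, and the share is higher there except that naïve control library 6 exceeds laser treated libraries 3 and 5.

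The first lines of the transcript files label 3 control and 2 laser treated libraries R1 and 3 of each group R2, and the meaning of these labels is not given in the sources used here. Among R1 libraries 23 members were higher and 0 lower at an unadjusted p under 0.05 in edgeR, and the median log2 fold change was 0.53. Among R2 libraries 5 were higher (Arsa, Neu1, Grn, Gaa and Ctsf) and 4 lower (Ids, Asah1, Ctsc and Lamp2), and the median was 0.10. The backgrounds of these counts were 8.09% higher and 9.49% lower within R1 and 2.94% higher and 3.28% lower within R2. The difference between the labels had an unadjusted p under 0.05 for 13 members, all with the larger log2 fold change in R1, beside 4.07% of all genes in that direction, and an adjusted p under 0.05 for none in edgeR. Ctsd had 0.82 in R1 and 0.21 in R2, Psap 0.85 and 0.089, and Naglu 1.39 and 0.29. Comparing these separate fits, the log2 fold change was larger in R1 for 41 of the 46 genes, and Arsa, with 0.88 in R1 and 1.3 in R2, was 1 of the 5 others, with Ctss, Galns, Npc1 and Scarb2. In the fit of the difference between the labels, 4 of the 46 had the larger log2 fold change in R2, against 50.7% of all genes. Counts of Y-linked genes were unevenly spread between the groups within R1, as described further on.

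**Figure D5:**
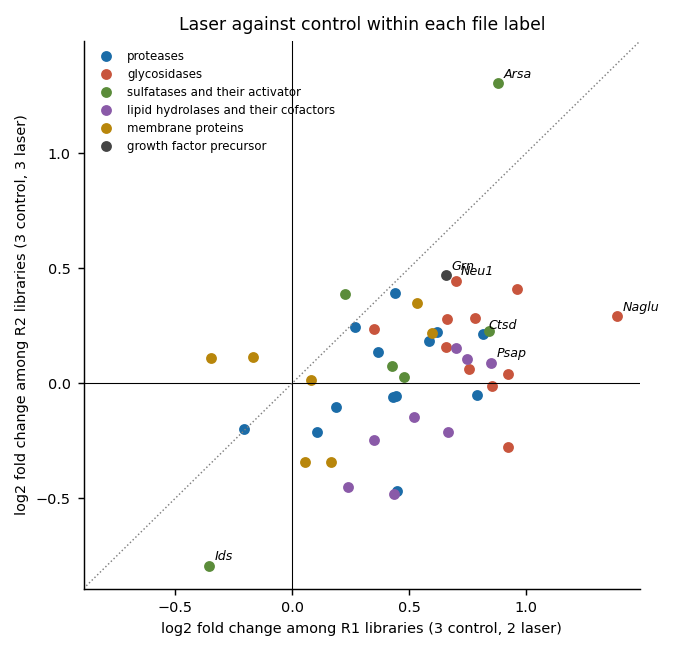
Log2 fold change of each member among the R1 libraries (3 control, 2 laser treated) and among the R2 libraries (3 of each group), with the dotted line marking equality. Most members lie below the line, with a median of 0.53 in R1 and 0.10 in R2; Arsa lies above it and Ids is below 0 in both.

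Neural retina, RPE and immune cell markers were measured beside these values. The 12 neural retina markers summed to 5354 to 20305 CPM in controls (median 8518) and 3679 to 16870 CPM after laser (median 4714). Their log2 fold change was negative for 11 of the 12, with a median of -0.45, and none had an unadjusted p under 0.05 in edgeR. These markers were high in naïve control libraries 1 and 3 (both R1) and laser treated libraries 3 and 4 (both R2). With their level as a covariate, 15 members were higher and 3 lower (Ids, Asah1 and Cd63) by unadjusted p in edgeR, beside 8.09% and 8.00% of all genes, with a median of 0.20. The 12 RPE markers were all present and summed to 97968 to 136105 CPM in controls and 82541 to 132676 CPM after laser. The 16 macrophage and microglia markers summed to 342 to 1049 CPM in controls and 456 to 1037 CPM after laser, and 0 of the 16 had an unadjusted p under 0.05 by edgeR or an adjusted one. Of the 12 RPE markers, 7 had a positive and 5 a negative log2 fold change, with a median of 0.042. The retinol transporter Stra6 and the GABA transporter Slc6a13, 2 of the 12, were higher at an unadjusted p under 0.05 in edgeR, beside 8.24% of all genes. Their log2 fold changes were 0.53 (SE 0.16) and 0.44 (SE 0.17), while Rpe65 and Ttr had -0.19 and -0.20. Of 9 endothelial markers, 8 had a positive log2 fold change (median 0.34) and none an unadjusted p under 0.05 in edgeR; they summed to 123 to 341 CPM in controls and 203 to 565 CPM after laser. All 4 blood genes had a negative one (median -0.91), with Hbb-b1 lower at an unadjusted p under 0.05, and summed to 48.1 to 326 CPM in controls and 37.2 to 159 CPM after laser. Of 8 choroidal melanocyte markers, 6 had a positive log2 fold change (median 0.15), and Sox10 alone was higher at an unadjusted p under 0.05 in edgeR. Of 8 fibroblast markers, 5 had a positive log2 fold change (median 0.39) and none such a p. Over all genes, 48.5% were above 0 and 8.24% higher. The part of the endothelial, blood, melanocyte, fibroblast and RPE markers in the result was not tested. No marker of these lists was at 0 in all libraries.

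The sex of the mice is not given in the labels. At least 100 counts of 4 Y-linked genes were present in 2 of 6 control libraries and 4 of 5 laser treated libraries. Laser treated library 2 held far less of them than the other 3, with 5.46 CPM of Ddx3y where those had 84.7 to 142 CPM, no count of Kdm5d, and 44.1 CPM of Xist. Within R1, all 3 controls had 0 CPM of Ddx3y, and laser treated libraries 1 and 2 had 142 and 5.46 CPM. Within R2, naïve control library 6 and laser treated library 3 had 0 CPM, and the other libraries of both groups had 84.7 to 109 CPM. The part of this imbalance in the difference between R1 and R2 was not tested. With the level of the 4 Y-linked genes as a covariate, 16 members were higher and 1 lower, beside 7.43% and 6.61% of all genes. In that fit the X-linked gene Ids had a log2 fold change of -0.72.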

How the data were processed

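RPE/choroid RNA was pre-amplified with SmartSeq v4 and made into libraries with NexteraXT, a method that does not record strand. The submitters' processing notes name bcl2fastq 2.18.0.12, Trim Galore, STAR 2.5.3a, featureCounts 1.5.3, StringTie 1.3.3 and edgeR 3.22.3, with builds mm10 and GRCm38. The authors deposited raw counts per gene for 11 libraries, with totals from 25700881 to 38755994, and columns of their own comparison (fold changes and p-values), which were not used. The authors also deposited a StringTie transcript file per library, whose TPM values were used in 1 alternative on the log2(TPM + 1) scale. The study's methods name 6 samples per group, and the 5 laser treated libraries in the labels were analysed.

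Counts of all 14602 genes were fitted with edgeR 4.0.16 (TMM factors, quasi-likelihood, robust), and p-values were adjusted by Benjamini-Hochberg over all of them. The low-count filter removed 0 genes. CPM are counts per 1000000 TMM-scaled counts. A gene was described as higher or lower at an unadjusted p under 0.05. Values of the libraries are given for the members so called, those with no overlap between groups and the 5 with the highest CPM per kilobase; genes of further lists are given by counts and examples. Intervals (95%) cover the spread between libraries. The code was tested on simulated data. Exon lengths and GC content (longest transcript) came from the GENCODE annotation and transcripts of GRCm38, matched for 14252 genes, and promoters from RefSeq, GRCm38.p6. Alternatives used DESeq2 1.42.0 and limma 3.58.1, other scalings and filters, a replicate block, GC and length trends (loess span 0.3), covariates and left-out libraries. The members and lists were chosen with earlier results of these data known. No protein sequences were used here. Some genes of the further lysosomal lists are counted in those lists and not reported here by name.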

Additional observations from a re-analysis of the deposited data

Results flagged for a closer look

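In 7 of the 94 groups of values examined (7.45%; chance alone flags about 5%), 1 library stood apart from the rest of its group by Dixon's criterion. Laser treated library 2 was the highest of its group for Psap, with 3512 CPM where the others had 2317 to 2515, for Glb1, with 118.5 CPM against 69.0 to 83.3, and for Cln3, with 72.3 CPM against 47.9 to 53.8. Laser treated library 4 was the lowest for Manba, with 22.8 CPM against 31.9 to 34.0, and the highest for Scarb2, with 23.6 CPM against 14.4 to 15.8. Naïve control library 6 had 50.7 CPM of Gla, where the other controls had 20.3 to 29.6. Naïve control library 1 had 28.7 CPM of Npc1, where the others had 14.0 to 18.1. Without laser treated library 2 the log2 fold change was 0.29 for Psap and 0.25 for Cln3.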

How the results depend on the processing

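Single genes were recomputed under the alternatives for the 21 members whose library values are given, and the other members are not in these counts. The direction and the side of the adjusted threshold held in 647 of the 672 values, 13 passed the threshold and 12 changed sign. Of the 21 genes, 18 had been picked by an unadjusted p under 0.05 in the main edgeR fit of the same libraries. Their signs were therefore likely to hold, and the 647 is not independent evidence for them. All of these genes had an adjusted p above 0.05 in the main edgeR fit. The low-count filter removed 0 genes, so the alternative without it repeated the main fit, and its values held by construction. By DESeq2, 8 members had an adjusted p under 0.05, and without naïve control library 6 and laser treated library 5 together 5 did (Arsa, Gaa, Ctsf, Smpd1 and Gm2a), beside 3.44% and 2.67% of all genes; this pair was chosen with earlier results known, and the groups overlap through 1 or both of them for Ctsd, Gaa, Grn and Ctsf. The count at an unadjusted p under 0.05, 18 in the report, became 7 with the GC trend removed (6.96% of all genes), 7 with the neural retina level added to that (8.28%), 9 within R2 (6.22%) and 3 within R2 with the GC trend removed (3.46%). It was 23 within R1 (17.6% of all genes) and 19 there with the GC trend removed (14.6%). With the GC trend removed it was 12 with the replicate block (9.96%) and 18 without naïve control library 6 and laser treated library 5 (13.1%). The median log2 fold change was 0.53 within R1 and 0.60 there with the GC trend removed, and 0.096 within R2 and -0.043 there with the GC trend removed, where 19 members and 46.2% of all genes were above 0. In that last fit the log2 fold changes of Ctsd (-0.036), Naglu (-0.033), Smpd1 (-0.092), Fuca1 (-0.027), Sgsh (-0.031), Psap (-0.13), Ctsz (-0.097) and Ctsb (-0.10) turned below 0. Ctsb was -0.056 within R2, Ids 0.066 within R1 with the GC trend removed, and Cd63 0.054 within R1 and 0.76 in the TPM of the transcript files. The cause of these changes was not tested. The alternatives within R1 and R2, those with GC combined with another choice, and the retina and Y-linked covariates were chosen after seeing the data.

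Leaving out each library in turn gave 13 to 20 members at an unadjusted p under 0.05, 33 to 39 above 0, a median of 0.22 to 0.35 and 0 by adjusted p. In the same fits 11.5% to 19.1% of all genes had an unadjusted p under 0.05 in edgeR, and 46.7% to 49.7% were above 0. With the replicate number as a block, 21 members had an unadjusted p under 0.05 (17.4% of all genes) and 37 were above 0 (47.8% of all genes). In that fit 0 members passed the adjusted threshold and the median was 0.32. Libraries that share a number deviated together with correlations of -0.0093, 0.12, 0.28, -0.0094 and -0.0084, so the numbers were not taken to pair them.

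With 5 and 6 libraries, differences below about the intervals given could not be detected, and the group cannot be told apart from the GC slope of the libraries, whose values did not overlap between the groups.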
